A study of Mus musculus with 2 samples.

Results

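The 7 genes described here act in intracellular carriage of fatty acids and acyl-CoA: 5 fatty acid binding proteins (Fabp1, Fabp2, Fabp4, Fabp5 and Fabp7), the acyl-CoA binding protein Dbi and the sterol carrier protein Scp2. They were found by symbol among 31053 genes in single-cell RNA sequencing of livers of C57BL/6 mice, in 1 library from mice fed chow and 1 library from mice fed a NASH diet, each for 6.5 weeks. NASH is non-alcoholic steatohepatitis, and the labels give the diet as high in fructose, fat and cholesterol. Livers were digested with collagenase and cells were spun on Percoll, so that hepatocytes of several densities and non-parenchymal cells were both collected. The sources used here do not give the age or number of mice behind each library. The genes were selected on their measured levels in these 2 libraries (their diet ratios, zones and cell types included), so those are given as descriptions. With 1 library per diet there is no spread between replicates, no test was made between diets, and all intervals are exact 95% intervals that cover counting error only.

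Fatty acids and their CoA esters are poorly soluble in water, and small carrier proteins bind them in the cytosol and pass them between membranes, mitochondria, peroxisomes and the nucleus. FABP1 is the abundant liver form and can hand ligands to the nuclear receptor PPARα, which in turn drives Fabp1 and many genes of fatty acid oxidation. FABP2 is best known from the intestine, FABP4 from adipocytes, macrophages and capillary endothelium, FABP5 from epidermis and several other tissues, and FABP7 from the developing brain and, in liver, from Kupffer cells, the resident macrophages. DBI binds long-chain acyl-CoA in most cells. The Scp2 gene encodes both a peroxisomal thiolase and the sterol carrier protein from different start sites, and counts taken at the 3′ end cannot separate them.

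Positions are from the GENCODE M21 annotation of GRCm38. Fabp4 (ENSMUSG00000062515, chr3:10204088-10208576, minus strand) and Fabp5 (ENSMUSG00000027533, chr3:10012548-10016607, plus strand) are close together on chromosome 3, and Fabp2 (ENSMUSG00000023057, chr3:122895072-122899506, plus strand) is farther along it. Fabp1 (ENSMUSG00000054422) is at chr6:71199827-71205023 on the plus strand, Fabp7 (ENSMUSG00000019874) at chr10:57784881-57788450 on the plus strand, Dbi (ENSMUSG00000026385) at chr1:120113280-120121078 on the minus strand and Scp2 (ENSMUSG00000028603) at chr4:108043839-108144998 on the minus strand. Each of the 5 Fabp genes and Dbi has 4 exons in its main coding transcript, and Scp2 has 16. In the last 300 bases of that transcript, where these libraries read, 6 of the 7 genes had no other annotated transcript alike (95% identity over 200 bases). Scp2 had 1, the pseudogene Scp2-ps2, which is not among the counted genes.

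The chow library held 71635757 unique molecular identifiers (UMIs, each standing for 1 captured RNA molecule) over 7359 barcodes and the NASH library 39440182 over 5881. Filters left 4041 and 2305 barcodes, with a median of 11.9% and 22.2% mitochondrial UMIs, and 69 barcode sequences occurred in both libraries. Hepatocyte barcodes were those with at least 2% of UMIs from 15 hepatocyte markers and no gate of another cell type. The cholangiocyte gate was excepted, so barcodes that met it were not left out. They were divided into deep barcodes of 10000 or more UMIs (1727 in chow and 927 under the NASH diet), intermediate barcodes of 2000 to 10000 (325 and 311) and low-UMI barcodes of 500 to 2000 (1821 and 838). Other cells were gated on at least 3 markers and at least 0.3% of UMIs: 63 and 56 endothelial, 67 and 34 Kupffer, and 23 and 51 other leukocyte barcodes. Levels are UMIs pooled over barcodes and scaled to a common total as CPM, and ratios are log2 of CPM plus 1. A gene counts as called at a 2-fold difference, and as tested at 10 CPM or more in either group. All markers were detected for the hepatocyte, endothelial and Kupffer groups in both libraries. Among 16 myeloid markers of the other leukocytes, the neutrophil genes S100a9 and S100a8 led in both libraries. The 16 markers summed to 42567 CPM in chow and 10291 CPM under the NASH diet, so this gate held cells in unlike proportions.

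In deep hepatocyte barcodes Fabp1 and Fabp2 were higher and Fabp5 was lower under the NASH diet. Of the 7 genes, 5 reached 10 CPM, and of these 2 were at least 2-fold higher and 1 at least 2-fold lower. Over all 6402 genes tested 3.19% were at least 2-fold higher and 2.53% at least 2-fold lower. Because these ratios took part in choosing the genes, nothing is read from that contrast. The median ratio of the 5 genes was 0.40 and that of all tested genes 0.12.

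Fabp1 was read at 5096 CPM (5075 to 5116) in chow against 10922 CPM (10878 to 10966) under the NASH diet, from 233463 and 234404 UMIs. The log2 ratio was 1.10 (1.09 to 1.11), or 0.98 when scaled by the median gene, which lies just under 2-fold. The gene was present in all deep barcodes of both libraries. With every barcode thinned to 10000 UMIs, the median barcode held 39 Fabp1 UMIs in chow and 74 under the NASH diet, and the interquartile range ran from 25 to 59 and from 51 to 120. The distributions therefore overlapped, and the NASH diet distribution was higher at each quantile given, with its 5th percentile at 27.3 against 13 and its 95th at 304 against 139.

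Fabp2 was read at 78.0 CPM (75.4 to 80.6) in chow against 245 CPM (238 to 251) under the NASH diet, for a log2 ratio of 1.64 (1.59 to 1.71). Its UMIs numbered 3572 and 5248. At 10000 UMIs a barcode, 49.6% (47.2 to 52.0) of chow barcodes and 79.5% (76.8 to 82.1) of NASH diet barcodes had at least 1 Fabp2 UMI, against 73.5% and 94.6% before thinning. Transcripts of this intestinal form were thus spread over most deep hepatocyte barcodes under the NASH diet.

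Fabp5 was read at 269 CPM (264 to 274) in chow against 61.5 CPM (58.2 to 64.9) under the NASH diet, for a log2 ratio of −2.11 (−2.21 to −2.05) from 12329 and 1319 UMIs. After thinning, 76.7% (74.6 to 78.6) of chow barcodes and 34.4% (31.4 to 37.6) of NASH diet barcodes had a Fabp5 UMI, against 91.1% and 52.1% before. Fabp5 was the only one of the 5 tested genes to be at least 2-fold lower.

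Both acyl carriers differed by less than 2-fold. Scp2 was read at 3671 CPM (3654 to 3689) in chow against 4839 CPM (4809 to 4868) under the NASH diet, for a log2 ratio of 0.40 (0.39 to 0.41). Its counts were the most even of the 3 abundant genes, with a variance over mean, after thinning, of 3.05 and 4.89 against 44.3 and 76.8 for Fabp1 and 11.1 and 7.80 for Dbi. At 10000 UMIs the interquartile range was 30 to 43.5 UMIs in chow and 40 to 54 under the NASH diet. Dbi was read at 2659 CPM (2644 to 2674) and 2184 CPM (2164 to 2203), giving a log2 ratio of −0.28 (−0.30 to −0.27). The direction of Dbi depended on which barcodes were compared, and its ratio was 0.21 when only barcodes with at most 20% mitochondrial UMIs were used. That value lies above both bands it pools, −0.83 under 10% and 0.09 from 10% to 20%, which the libraries held in unlike proportions.

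Fabp4 and Fabp7 were nearly absent from hepatocytes. Fabp4 had 80 UMIs in 36 of 1727 deep chow barcodes, or 1.75 CPM (1.38 to 2.17), and 73 UMIs in 45 of 927 NASH diet barcodes, or 3.40 CPM (2.67 to 4.28). Both levels are under 10 CPM, so Fabp4 was not counted in the contrast. Fabp7 had 2 UMIs in chow and 0 under the NASH diet, and no fold is given. For those 0 UMIs a floor of 3 counts is 0.14 CPM, and the exact upper limit is 0.17 CPM. The low-UMI hepatocyte barcodes of the NASH library held 8 Fabp7 UMIs in 5 of 838 barcodes, beside 34.2 CPM of summed Kupffer markers. Those of chow held 0 Fabp7 UMIs in 1821 barcodes beside 81.9 CPM. The part of Kupffer RNA in these counts was not tested.

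**Figure D1:**
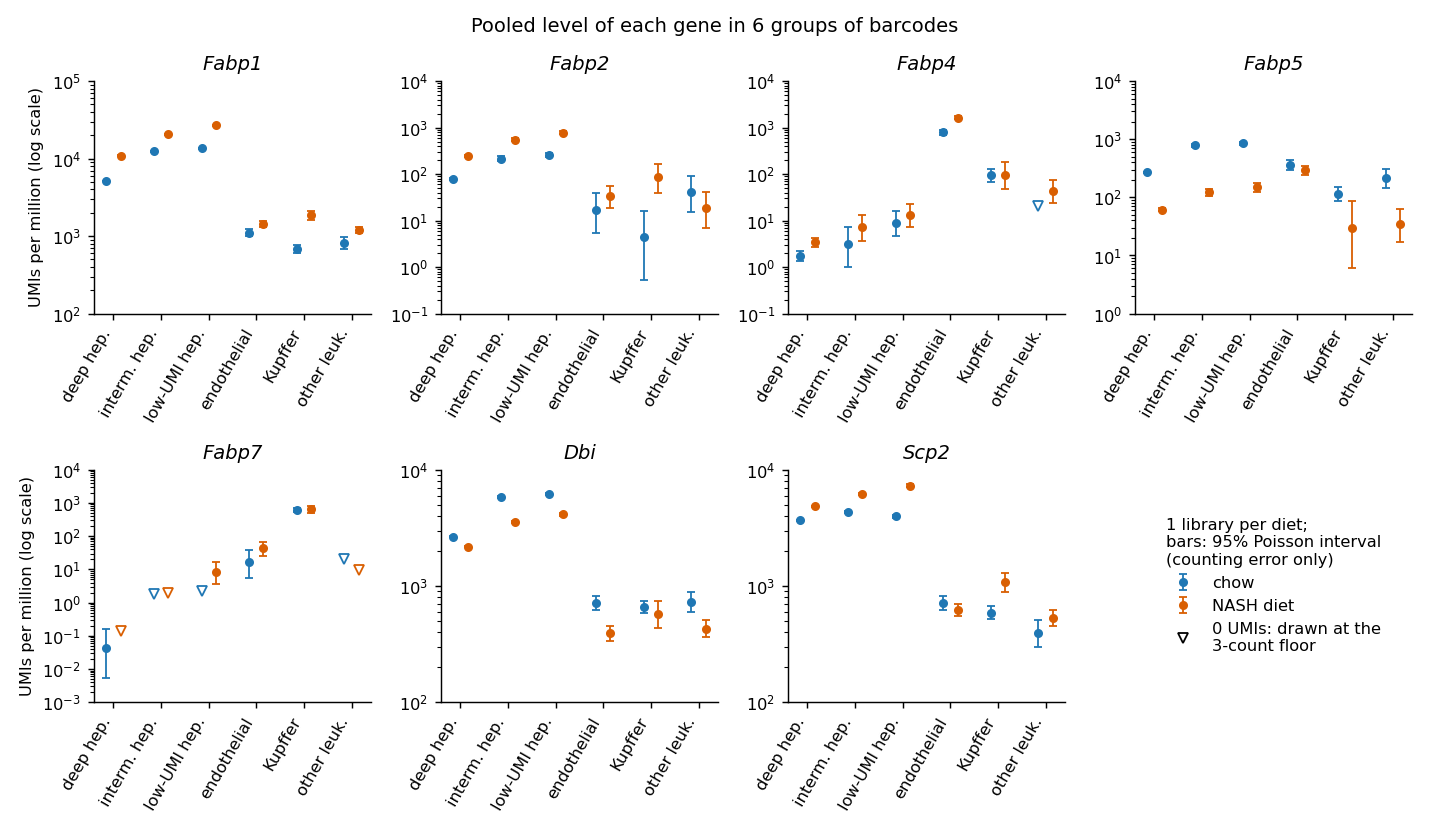
Pooled CPM (log scale) of the 7 genes in 6 groups of barcodes; blue is the chow and orange the NASH library, bars are 95% Poisson intervals for counting error, and open triangles mark 0 UMIs drawn at the level of 3 counts. Fabp1, Fabp2, Dbi and Scp2 are high in hepatocyte barcodes, Fabp4 is high in endothelial barcodes (800 and 1636 CPM) and Fabp7 in Kupffer barcodes (614 and 653 CPM).

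**Figure D2:**
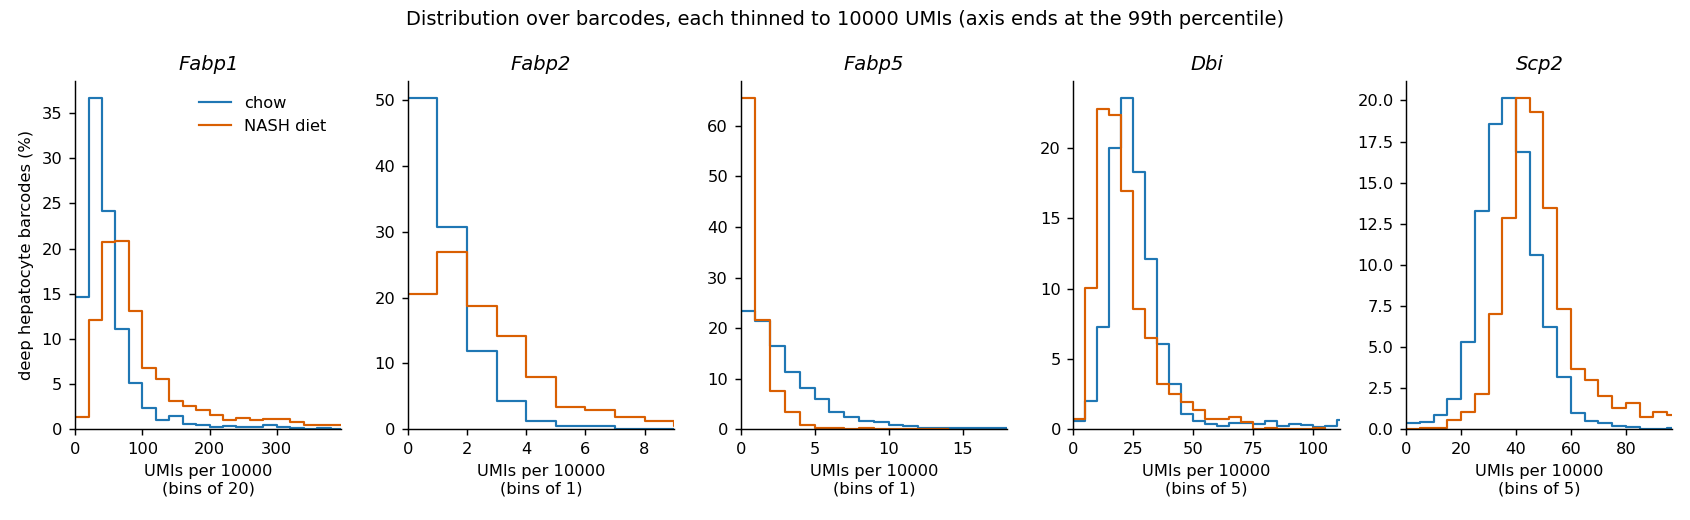
Share of deep hepatocyte barcodes (%) by the number of UMIs of a gene after each barcode was thinned to 10000 UMIs, for chow (blue, 1727 barcodes) and the NASH diet (orange, 927 barcodes). The whole Fabp1 distribution is shifted upward (median 39 and 74 UMIs), while barcodes with 0 UMIs are fewer for Fabp2 and more for Fabp5 under the NASH diet.

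The promoter sequences of the 2 genes that were higher under the NASH diet are shown because the peroxisome proliferator response element, the site that PPARα binds with its partner RXR, lies in the known Fabp1 promoter. They are RefSeq sequences of GRCm38.p6, 5′ to 3′ on the gene's strand, from 250 bases before the RefSeq start site and stopped before the first annotated transcript base. Capitals mark a match, on either strand with at most 2 mismatches, to DR1, a direct repeat of AGGTCA with 1 base between the copies.
Fabp1, chr6:71199629-71199826, plus strand: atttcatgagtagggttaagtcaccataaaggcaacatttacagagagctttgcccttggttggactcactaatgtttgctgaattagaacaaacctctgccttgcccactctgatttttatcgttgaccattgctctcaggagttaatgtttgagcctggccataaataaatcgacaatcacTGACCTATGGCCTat
Fabp2, chr3:122894822-122895071, plus strand: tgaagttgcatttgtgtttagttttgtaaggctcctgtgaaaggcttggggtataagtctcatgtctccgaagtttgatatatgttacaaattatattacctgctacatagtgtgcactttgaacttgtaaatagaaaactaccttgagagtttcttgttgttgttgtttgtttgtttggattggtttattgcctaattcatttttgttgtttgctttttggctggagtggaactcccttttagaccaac
The Fabp1 window holds 1 match with 1 mismatch, on the minus strand, from −67 to −55 relative to the RefSeq start. The Fabp2 window holds none, and neither do the windows of Fabp7, Dbi and Scp2, which were read alike and are not printed. Of 32851 RefSeq promoter windows, read over their first 250 bases, 3.24% hold such a match. The printed Fabp1 window is shorter, at 198 bases, and that of Fabp2 has 250. These are matches of letters only, and no binding was measured here.

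The diet ratios of these genes were then compared across barcode depth. In 7 depth bins from 500 to over 30000 UMIs the log2 ratio of Fabp1 ran from 0.63 to 1.33, that of Fabp2 from 1.26 to 1.88, that of Scp2 from 0.33 to 0.87 and that of Fabp5 from −2.82 to −1.84. None of these 4 genes changed direction in any bin. Dbi was lower under the NASH diet in all 7 bins, from −0.79 at 5000 to 10000 UMIs to −0.05 (−0.07 to −0.02) at 30000 or more. In the lowest bin, of 500 to 1000 UMIs, Fabp1 was read at 13671 CPM in 1620 chow barcodes and 25008 CPM in 355 NASH diet barcodes.

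The mitochondrial share of barcodes moved with these values. Among deep hepatocyte barcodes, 77 in chow and 62 under the NASH diet had under 10% mitochondrial UMIs, with a median of 0.96% and 2.10%. In those barcodes Fabp1 stood at 21492 and 35025 CPM, Dbi at 9256 and 5199 CPM, Fabp5 at 1225 and 187 CPM and Fabp2 at 312 and 782 CPM, all above the deep barcodes as a whole. Alb, the main hepatocyte plasma protein gene, stood at only 4231 and 7691 CPM there, against 25660 and 37784 CPM over all deep barcodes. The nuclear transcript Malat1 stood at 7.14 and 594 CPM, against 999 and 947 CPM. These barcodes held 30090 of 233463 Fabp1 UMIs in chow and 46339 of 234404 under the NASH diet.

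The diet ratio was taken within bands of mitochondrial share, and its size differed between them. For Fabp1 it was 0.70 (0.68 to 0.73) under 10%, 1.59 (1.57 to 1.60) from 10% to 20% and 0.95 (0.94 to 0.97) from 20% to 30%. Fabp2 had 1.32, 2.02 and 1.35, Scp2 0.71, 0.37 and 0.30, and Fabp5 −2.70, −1.96 and −2.08. Dbi had −0.83 (−0.87 to −0.79), 0.09 (0.07 to 0.12) and −0.35 (−0.37 to −0.32), so its direction was not the same in the 3 bands. With only barcodes of at least 10% mitochondrial UMIs, Fabp1 had 1.03, Fabp2 1.55, Fabp5 −2.15, Dbi −0.30 and Scp2 0.34. With only those of at most 20%, Fabp1 had 1.79, Fabp2 2.31, Fabp5 −1.66 and Scp2 0.61. That limit pools the bands under 10% and from 10% to 20%, which the libraries held in unlike proportions. They had 77 and 1036 barcodes in chow and 62 and 148 under the NASH diet. The pooled values of Fabp1, Fabp2 and Fabp5 lie outside those of both bands, so they do not describe either band. What the mitochondrial share contributed to the ratios was not tested.

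**Figure D3:**
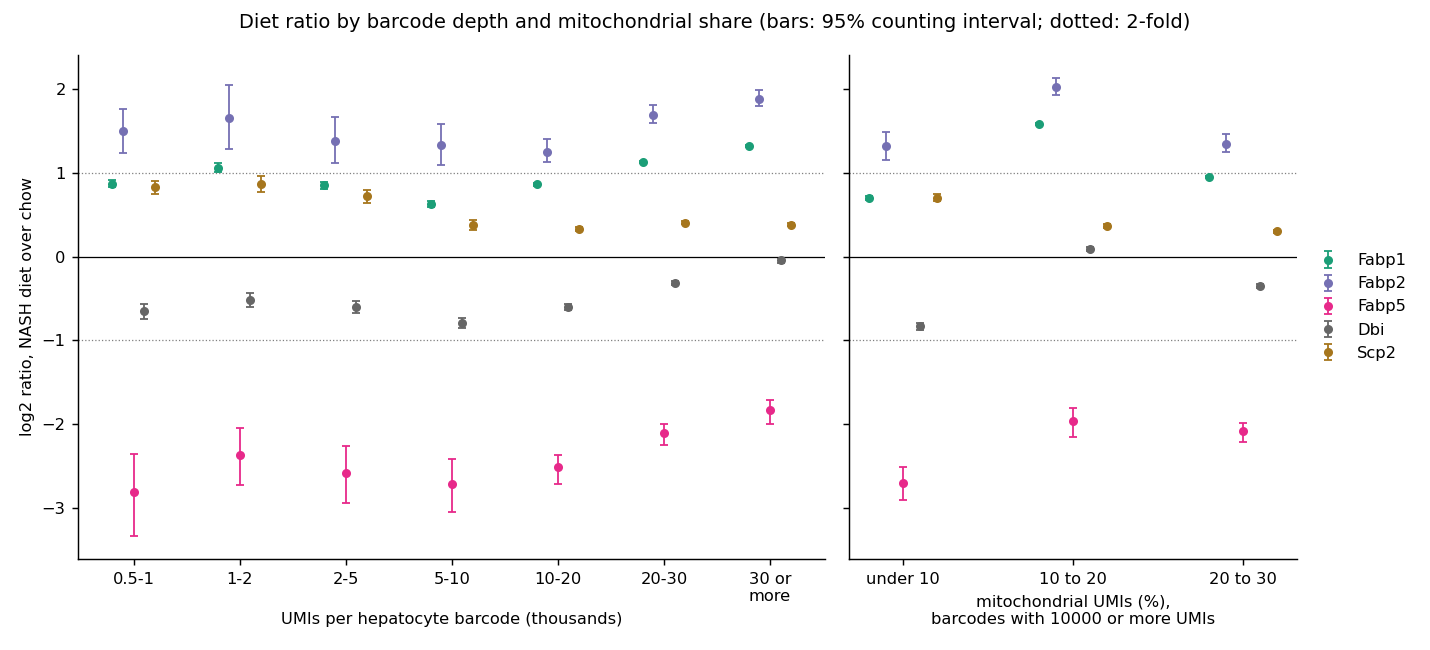
Log2 ratio of CPM, NASH diet over chow, of 5 genes in 7 bins of UMIs per hepatocyte barcode (left) and in 3 bands of mitochondrial UMIs among deep barcodes (right, in percent); bars are 95% counting intervals and dotted lines mark 2-fold. Fabp1, Fabp2 and Scp2 stay above 0 and Fabp5 below it throughout, while Dbi is below 0 except in the band from 10 to 20%, at 0.09.

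Barcodes above the mitochondrial limit of 30% were read on another scale, as CPM with mitochondrially encoded UMIs left out of the total. They were barcodes in no other cell type's gate, the cholangiocyte gate again excepted. From 30% to 80% mitochondrial UMIs (437 chow and 2172 NASH diet barcodes), Fabp1 stood at 4433 (4330 to 4537) in chow and 14815 (14686 to 14944) under the NASH diet. Above 80% (2569 and 1118 barcodes), it stood at 7983 (7771 to 8200) and 13072 (12746 to 13404). Fabp5 stood at 327 and 92.9 from 30% to 80% and at 497 and 57.7 above 80%. Both genes thus had the same direction as in the kept barcodes. Dbi was close in the 2 libraries from 30% to 80%, at 3057 (2972 to 3143) and 3093 (3034 to 3152), and lower under the NASH diet above 80%, at 3769 (3624 to 3919) and 2376 (2238 to 2520).

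Low-UMI hepatocyte barcodes held a larger share of the short Fabp and Dbi transcripts than deep ones. In chow Fabp1 stood at 13597 CPM (13400 to 13797) in low-UMI against 5096 CPM in deep barcodes, a log2 ratio of 1.42, and under the NASH diet at 26933 CPM (26606 to 27262) against 10922 CPM, a ratio of 1.30. Fabp2 had 1.73 in chow and 1.65 under the NASH diet, and Fabp5 had 1.66 and 1.26. Dbi had 1.21 and 0.92, and Scp2 0.12 and 0.59. Alb stood at 7419 CPM in chow and 8826 CPM under the NASH diet in low-UMI barcodes, against 25660 and 37784 CPM in deep ones. Malat1 stood at 113 and 1057 CPM, against 999 and 947 CPM. The part of free hepatocyte RNA in low-UMI barcodes was not tested. In chow 4 of 5 tested genes were at least 2-fold higher in low-UMI barcodes and none was lower, where 15.8% of all 6505 genes tested were higher and 17.9% lower. Under the NASH diet 4 of 6 were higher, one of them Fabp4 with only 13 UMIs, against 14.0% of 6707 genes, and none lower, against 19.7%.

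Such differences went with transcript length among all genes. The main coding transcripts of Fabp1 and Dbi are 553 and 569 bases long, those of Fabp7, Fabp4, Fabp2 and Fabp5 804, 896, 965 and 987, and that of Scp2 2640. Among tested genes with a transcript under 800 bases, 68.0% in chow and 41.9% under the NASH diet were at least 2-fold higher in low-UMI barcodes. Among genes of 800 to 2000 bases the shares were 34.0% and 30.3%, and among genes of 2000 bases or more 3.98% and 4.93%. The intermediate barcodes stood between, with Fabp1 at 12482 CPM (12310 to 12656) and 20536 CPM (20309 to 20766). There 4 of 5 tested genes in chow were called higher (9.28% of all genes) and 1 of 5 under the NASH diet (14.3%), the one being Fabp2 at 1.17. None was called lower, against 5.14% and 3.45% of all genes. How much of the depth difference goes with transcript length was not tested.

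Position in the liver lobule was scored in deep hepatocyte barcodes from 12 pericentral and 12 periportal markers, none of them among the 7 genes, and barcodes of each library were split by the score into 3 zones of equal size. Pericentral hepatocytes lie around the central vein and periportal ones around the portal triad where blood enters. Fabp1, Fabp2 and Fabp5 were all lower in the periportal zone in both libraries. In chow 2 of 5 tested genes were at least 2-fold lower periportally and none was higher, against 2.92% of 6308 genes lower and 2.17% higher. With the NASH diet 1 of 5 was at least 2-fold lower, against 4.58% of 6533 genes, and none was higher, against 1.94%. The median ratio of all tested genes was −0.13 and −0.22. Barcodes under 10% mitochondrial UMIs were 35, 39 and 3 in the pericentral, middle and periportal zones of chow and 15, 45 and 2 in those of the NASH library.

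Fabp2 had the steepest gradient of the 5 tested genes in both libraries. It stood at 126 CPM (121 to 132) in the pericentral and 47.2 CPM (43.9 to 50.8) in the periportal zone of chow, a log2 ratio of −1.40 (−1.55 to −1.30). Under the NASH diet it stood at 335 CPM (323 to 348) and 146 CPM (137 to 155), a ratio of −1.19 (−1.31 to −1.09). The periportal level of the NASH library was therefore above the pericentral level of chow. Without barcodes under 10% mitochondrial UMIs the ratios were −1.24 and −1.09, and with Cyp2e1 and Cyp2f2 left out of the score the NASH diet ratio was −0.99, just under 2-fold.

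Fabp5 stood at 367 CPM (358 to 377) in the pericentral and 147 CPM (141 to 154) in the periportal zone of chow, a ratio of −1.31 (−1.39 to −1.25). With the NASH diet it stood at 68.5 CPM (63.1 to 74.4) and 37.2 CPM (32.7 to 42.2), a ratio of −0.86 (−1.10 to −0.66). Every zone of the NASH library was below every zone of chow. Without barcodes under 10% mitochondrial UMIs the ratios were −1.18 and −0.76.

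Fabp1 stood at 6476, 4673 and 4113 CPM from the pericentral to the periportal zone of chow, a ratio of −0.65 (−0.67 to −0.64) between the outer zones. Under the NASH diet it stood at 12945, 11376 and 7892 CPM, a ratio of −0.71 (−0.73 to −0.70). Every NASH diet zone was above every chow zone. Dbi had −0.22 (−0.24 to −0.20) in chow and −0.60 (−0.64 to −0.57) under the NASH diet, and Scp2 −0.13 (−0.15 to −0.12) and −0.24 (−0.26 to −0.22). Without barcodes under 10% mitochondrial UMIs Fabp1 had −0.51 and −0.66 and Dbi −0.10 and −0.57.

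The few Fabp4 UMIs of deep hepatocyte barcodes were mostly pericentral. The pericentral zone held 65 of 80 in chow and 53 of 73 under the NASH diet, and the periportal zone held 2 and 10. The endothelial markers summed to 5.46 CPM in the pericentral and 8.26 CPM in the periportal zone of chow, and to 17.3 and 5.94 CPM under the NASH diet. The marker sum of the adipocyte list was 2.64 CPM (pericentral) and 0 CPM (periportal) in chow, and 78.6 and 0.30 CPM under the NASH diet. Of the 5 markers in that list 2 had UMIs in deep barcodes of chow (Cfd, which led, and Retn) and 3 under the NASH diet (Cfd, Retn and Plin1), while Adipoq and Lep had 0 UMIs in both libraries. Their part in the Fabp4 counts was not tested.

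In finer steps along the score, the quintile nearest the central vein held Glul at 1198 CPM in chow and 3822 CPM under the NASH diet, and the quintile farthest from it 21.7 and 11.1 CPM. Glul makes glutamine synthetase and marks the hepatocytes next to the central vein. It is itself among the pericentral markers of the score, so its fall along the score was built in and is no separate check. Fabp2 was lower at each step in both libraries, from 146 to 47.2 CPM in chow and from 354 to 138 CPM under the NASH diet. Fabp5 was lower at each step in chow, from 380 to 127 CPM, whereas under the NASH diet it was highest in the second quintile, at 85.4 CPM (65.6 CPM in the first and 32.2 CPM in the last). Dbi differed little in chow, from 2828 to 2385 CPM, and in the NASH library was read at 2817 CPM (first) and 1797 CPM (last), so that the libraries had nearly the same Dbi level next to the central vein and differed elsewhere.

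**Figure D4:**
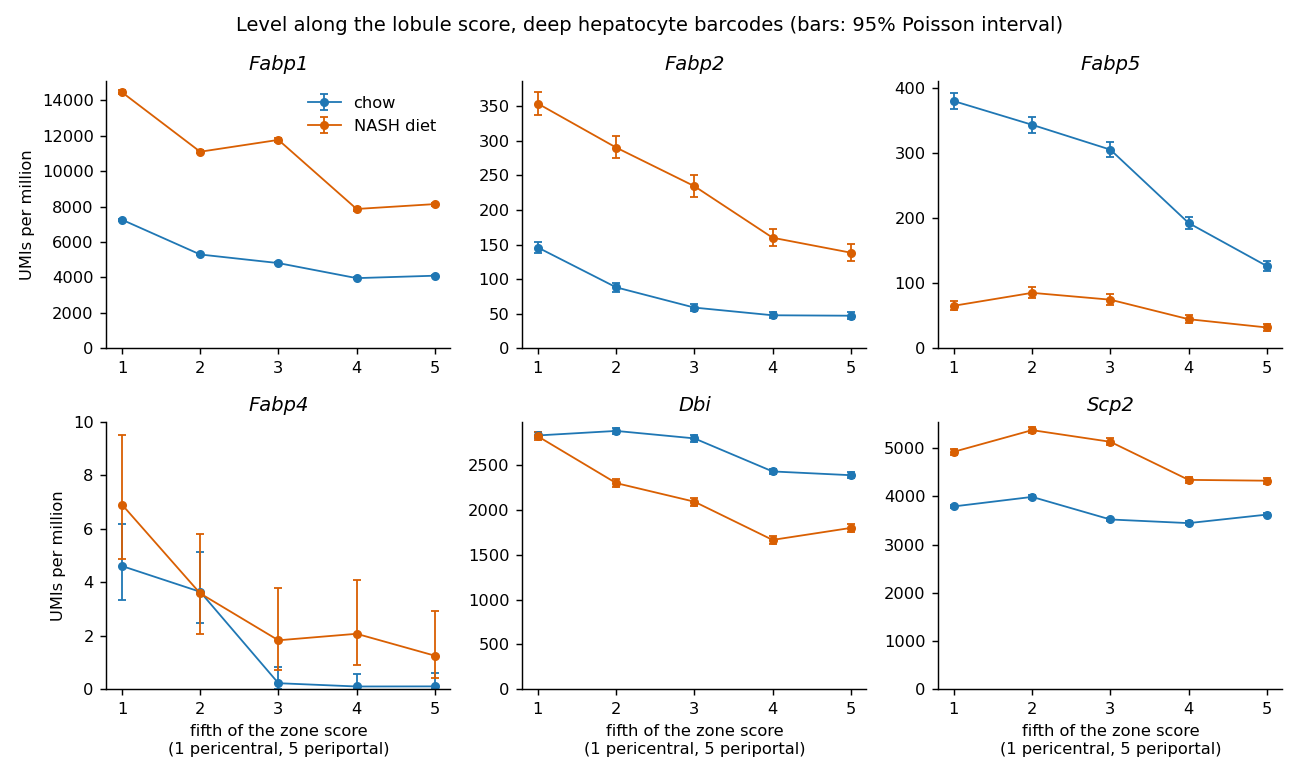
Pooled CPM in 5 equal groups of deep hepatocyte barcodes ordered by the zone score, from pericentral (1) to periportal (5), in chow (blue) and the NASH library (orange); bars are 95% Poisson intervals for counting error. Fabp2 is lower at each step in both libraries, and the Dbi lines meet in the first quintile (2828 and 2817 CPM) and lie apart in the others.

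The diet ratio was also taken in each zone. For Fabp1 it was 0.999, 1.28 and 0.94 in the pericentral, middle and periportal zones, for Fabp2 1.40, 1.93 and 1.61, for Scp2 0.38, 0.51 and 0.28 and for Fabp5 −2.40, −1.92 and −1.96. Dbi had −0.10 (−0.12 to −0.07) in the pericentral, −0.41 in the middle and −0.48 (−0.51 to −0.45) in the periportal zone. All 5 genes kept 1 direction in the 3 zones. Differences between zones were not tested.

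From barcode to barcode within the deep hepatocytes, Fabp1 and Dbi varied together. With every barcode thinned to 10000 UMIs, Pearson's r between them was 0.80 in chow (1727 barcodes) and 0.80 under the NASH diet (927 barcodes), and Spearman's rho was 0.51 and 0.62. For Fabp1 and Fabp2 r was 0.48 and 0.63, for Fabp1 and Scp2 0.36 and 0.54, and for Fabp1 and Fabp5 0.48 and 0.24. The lowest of the 10 pairs was Scp2 with Fabp5 in chow, at 0.21, and Fabp2 with Fabp5 under the NASH diet, at 0.18. Barcodes of 1 library share its preparation, and barcodes under 10% mitochondrial UMIs were high in these genes, so these values are descriptions.

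Among the endothelial, Kupffer and other leukocyte gates, Fabp4 was highest in endothelial barcodes. Fabp4 had 241 UMIs in 34 of 63 chow barcodes, or 800 CPM (702 to 907), and 728 UMIs in 50 of 56 NASH diet barcodes, or 1636 CPM (1519 to 1759). The log2 ratio was 1.03 (0.82 to 1.25). The top barcode held 16.6% and 12.4% of these UMIs, so they were spread over many cells. With barcodes thinned to 1000 UMIs (13 chow and 2 NASH diet barcodes were shallower), 36.0% (22.9 to 50.8) of chow barcodes and 68.5% (54.4 to 80.5) of NASH diet barcodes had a Fabp4 UMI, against 0.17% and 0.11% of deep hepatocyte barcodes thinned alike. Before thinning, the median depth was 4386 and 5674.5 UMIs in endothelial and 26136 and 21697 in deep hepatocyte barcodes. Against deep hepatocyte barcodes Fabp4 was 458-fold higher in chow and 481-fold higher under the NASH diet. Barcodes gated on mesenchymal markers (8 and 11) also held Fabp4, with 16 and 136 UMIs, a ratio of 2.17 (1.42 to 3.02). Fabp4 was lower there than in endothelial barcodes when scaled to all UMIs, in both libraries. All UMIs numbered 84791 and 159521 in mesenchymal and 301348 and 445109 in endothelial barcodes. Per 1000 Fabp1 UMIs Fabp4 numbered 296 and 1271 in mesenchymal barcodes, against 722 and 1137.5 in endothelial ones. That scale rests on only 54 and 107 Fabp1 UMIs in mesenchymal barcodes. Mesenchymal markers summed to 1752 and 3026 CPM in the endothelial gate, and their part in its Fabp4 counts was not tested.

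Fabp5 was also read in endothelial barcodes, at 362 CPM (297 to 436) from 109 UMIs in chow and 290 CPM (242 to 344) from 129 UMIs under the NASH diet. The log2 ratio of −0.32 (−0.70 to 0.06) includes 0, so a difference was not detectable at this depth, whereas hepatocyte barcodes had −2.11. Fabp5 numbered 326 and 202 UMIs per 1000 Fabp1 UMIs in endothelial barcodes, and 52.8 and 5.63 in deep hepatocyte barcodes. Thinned to 1000 UMIs, 28.0% (16.2 to 42.5) and 20.4% (10.6 to 33.5) of endothelial barcodes had a Fabp5 UMI, and 21.02% and 4.64% of deep hepatocyte barcodes. Whether the diet ratio differed between endothelial and hepatocyte barcodes was not tested.

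Of the 7 genes, 2 were at least 2-fold higher in the endothelial barcodes of the NASH library and none lower, against 13.4% and 8.72% of 9539 genes. They were Fabp4 and Fabp7, the latter with 5 UMIs in 1 chow barcode and 19 UMIs in 3 NASH diet barcodes. Kupffer markers summed to 1195 and 1004 CPM in the endothelial gate, and their part in those counts was not tested.

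Among the same gates, Fabp7 was highest in Kupffer barcodes. It had 280 UMIs in 40 of 67 chow barcodes, or 614 CPM (544 to 690), and 67 UMIs in 15 of 34 NASH diet barcodes, or 653 CPM (506 to 829.5). The log2 ratio of 0.09 (−0.32 to 0.48) includes 0, so a difference in either direction was not detectable. After thinning to 1000 UMIs, with 13 and 10 barcodes left out, 33.3% (21.1 to 47.5) of chow barcodes and 41.7% (22.1 to 63.4) of NASH diet barcodes had a Fabp7 UMI (59.7% and 44.1% before). The median depth was 4943 UMIs in chow and 1479.5 under the NASH diet. Deep hepatocyte barcodes thinned alike had 0 of 1727 and 0 of 927, which at a floor of 3 barcodes with a UMI allows up to 0.17% and 0.32% (exact upper limits 0.21% and 0.40%), and other leukocyte barcodes had 0 UMIs in both libraries. With the NASH diet the Kupffer level was at least 4673-fold that of deep hepatocyte barcodes, against a floor of 3 counts over that group. Of the groups of barcodes compared, Kupffer barcodes thus had the highest Fabp7 level in both libraries.

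Fabp5 in Kupffer barcodes had 53 UMIs in 25 chow barcodes, or 116 CPM (87.0 to 152), and 3 UMIs under the NASH diet, or 29.2 CPM (6.03 to 85.5). The ratio of −1.95 carries a wide counting interval (−4.31 to −0.36). In chow 1 barcode held 34.0% of those UMIs. Fabp4 had 43 UMIs in 4 chow Kupffer barcodes, 79.1% of them in 1, and 10 UMIs in 4 NASH diet barcodes. Endothelial markers summed to 2128 and 2954 CPM in the Kupffer gate, and their part in the Fabp4 counts was not tested. By diet, 2 of the 7 genes (Fabp1, and Fabp2 with 2 UMIs in chow and 9 under the NASH diet) were at least 2-fold higher and 1 (Fabp5) at least 2-fold lower, against 12.9% and 21.2% of 8810 genes.

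The hepatocyte genes of the set were low in all 3 gates. Fabp1 stood at 1108 CPM (993 to 1234) in endothelial barcodes of chow and 1438 CPM (1329 to 1554) in those of the NASH library, at 682 and 1852 CPM in Kupffer barcodes and at 817 and 1198 CPM in other leukocytes. Under the NASH diet 1 endothelial barcode held 46.2% of the Fabp1 UMIs of its gate, and in chow 1 Kupffer barcode held 35.7%. Those levels were from 4.60-fold to 9.12-fold below deep hepatocytes. The hepatocyte markers made up 0.74% and 0.33% of UMIs in the endothelial, 0.47% and 0.82% in the Kupffer and 0.47% and 0.53% in the other leukocyte gate, against 10.4% and 10.2% in deep hepatocytes. The higher Fabp1 level of NASH diet Kupffer barcodes, at a log2 ratio of 1.44, stood beside a higher hepatocyte marker share. In endothelial barcodes the ratio was 0.38 (0.18 to 0.57) beside a lower share, at 0.33% against 0.74% in chow. Other leukocytes had 0.55 (0.25 to 0.86), with shares of 0.47% in chow and 0.53% under the NASH diet. The part of hepatocyte RNA in these levels was not tested.

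Relative to Fabp1, Dbi and Scp2 differed in their proportions between gates. Dbi numbered 522 UMIs per 1000 Fabp1 UMIs in deep hepatocytes of chow, 453 in low-UMI hepatocyte barcodes, 647 in endothelial, 968 in Kupffer and 898 in other leukocyte barcodes. With the NASH diet it numbered 200, 153, 272, 311 and 360. Every gate was therefore above both hepatocyte groups of its library for Dbi, with few UMIs in each (59 to 301). Scp2 per 1000 Fabp1 UMIs was 720, 293, 650, 868 and 483 in chow and 443, 271, 436, 584 and 444 under the NASH diet, so that all gates were above the low-UMI barcodes. Fabp2 had only 2 to 15 UMIs in a gate.

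Other leukocytes gave few counts. Fabp5 had 31 UMIs in 12 of 23 chow barcodes, with 48.4% in 1, and 11 UMIs in 7 of 51 NASH diet barcodes, or 215 and 34.6 CPM, a ratio of −2.60 (−3.78 to −1.60). Fabp4 had 0 UMIs in chow and 14 in 3 NASH diet barcodes, 85.7% of them in 1, at least 2.12-fold higher against a floor of 3 counts over the group. By diet, 1 of the 6 genes tested was at least 2-fold higher (Fabp4) and 2 lower (Fabp5, and Fabp2 with 6 UMIs in each library), against 20.4% and 17.3% of 8623 genes. As the gate held leukocytes in unlike proportions in the 2 libraries, these values compare the gate and not a cell type.

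Against deep hepatocytes of the same library, 2 of the 7 genes (Fabp4 and Fabp7) were at least 2-fold higher in endothelial barcodes of chow and 4 lower, where 55.5% of 9087 genes were higher and 14.4% lower. Under the NASH diet 3 were higher, with Fabp5 added at a ratio of 2.22 (1.97 to 2.50), and 4 lower, against 56.3% and 15.1% of 9805 genes. In Kupffer barcodes Fabp4 and Fabp7 were higher and the other 5 lower in both libraries, against 51.1% and 15.6% of 9160 genes in chow and 44.8% and 22.6% of 8331 under the NASH diet. In other leukocytes 0 of 5 were higher and 3 lower in chow (45.3% and 24.5% of 8707 genes), and 1 of 6 (Fabp4) was higher and 4 lower under the NASH diet (42.7% and 22.1% of 8805 genes).

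Over 16 points, namely 8 groups of barcodes in each library, the genes whose log2 level followed each carrier most closely were taken from 11684 genes. Points of 1 library share its preparation, so these correlations are descriptions. For Fabp1 they were Acaa2 (Pearson's r of 0.99) and Hpd (0.98), for Fabp2 Eci1 (0.96) and Acat1 (0.96), and for Scp2 Dpys and Tdo2 (both 0.99). Acaa2 and Eci1 encode mitochondrial enzymes of fatty acid oxidation. For Dbi they were Ppa1 and Uqcrq (both 0.98), for Fabp4 Sparc and Stk40 (both 0.96) with Gpihbp1, the capillary anchor of lipoprotein lipase, also at 0.96, and for Fabp7 Folr2, C3ar1 and Vsig4 (all 0.97), of which Folr2 and Vsig4 were Kupffer markers used for the gate. Genes at an r of 0.9 or more numbered 211 for Fabp1, 33 for Fabp2, 342 for Scp2 and 147 for Dbi. They numbered 195 for Fabp4 and 79 for Fabp7, so the named genes are not singled out. Fabp5 had no gene above 0.9, and its nearest were Rpap3 (0.88) and Enho (0.84). Among the 7 genes the closest pair was Fabp1 with Scp2, at 0.96.

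The other genes of the pathway were read in the same deep hepatocyte barcodes from lists chosen for their roles. Of 11 other genes with an acyl-CoA binding or sterol carrier domain, 7 were tested and none was past 2-fold, with a median of 0.46. Their highest ratios were those of Eci2 (0.89) and Hsd17b4 (0.74), both peroxisomal enzymes of fatty acid oxidation, and their lowest those of Acbd3 (−0.02) and Acbd6 (0.18). Of 12 other soluble lipid carriers, 11 were tested and 1 was called, the phosphatidylcholine transfer protein Pctp, at 30.1 and 83.4 CPM (1.44). In that list Sec14l2 had 0.86, the sterol carrier Stard4 −0.66 and the lysosomal cholesterol carrier Npc2 −0.08.

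Genes that bring fatty acids into the cell and join them to CoA had ratios above 0 in 11 of 12 cases, where 4135 of all 6402 tested genes did. Of the 12 tested, 2 were at least 2-fold higher and 1 lower, with a median of 0.49. Cd36, a fatty acid translocase, stood at 14.1 and 80.6 CPM (2.43), and Acsl1, the main long-chain acyl-CoA synthetase of liver, at 363 and 1135 CPM (1.64). Acsl3 stood at 27.3 and 9.97 CPM (−1.37), and Acsm1 at 163 and 178 CPM (0.12).

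Of 18 targets of PPARα, 16 were tested, 8 were at least 2-fold higher, none was lower and the median was 1.41. The highest were Cyp4a10, at 21.2 and 538 CPM (4.60), and Cyp4a14, at 16.5 and 264 CPM (3.92), fatty acid omega-hydroxylases whose reads can be shared within their family. The lowest were Angptl4 (−0.11), an inhibitor of lipoprotein lipase, and Creb3l3 (0.37). Of 9 targets of PPARγ, 3 were tested and 3 were called higher, namely Lpl (4.89), Cidec (3.46) and Cd36 (2.43), of which Cd36 and Cidec stand in another list as well. Of 14 targets of the sterol and fatty acid regulators SREBP, 13 were tested, 6 were at least 2-fold lower and 1 higher, with a median of −0.95. Scd1, the stearoyl-CoA desaturase, stood at 1217 and 10499 CPM (3.11), and Elovl6 had 0.46. The sterol synthesis genes Sqle and Idi1 had −6.43 and −5.32. Over all 6402 tested genes 204 were higher and 162 lower. The lists were chosen with earlier results of these libraries known, and nothing is called particular to them.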

How the data were processed

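The 10x 3′ libraries were 2 in number, 1 per diet. The deposited matrices hold UMI counts per gene and barcode; the submitters' processing notes name Cell Ranger 3.1.0, Seurat and the mm10 build, while the software version per the file headers is 3.0.2. Each library's own matrix was used, and the merged matrix only as an alternative. Barcodes were kept from 200 genes and 500 UMIs upward, if mitochondrial UMIs did not exceed 30%. Scrublet's own threshold (scanpy 1.11.5) called 0 doublets, so the highest scores were left out at 0.8% per 1000 barcodes (433 chow and 277 NASH diet barcodes). Cell groups came from marker gates, not clusters; the markers preceded the gate thresholds, which were set after the values were seen. Zones are 3 equal groups, within a library, by mean log periportal minus pericentral marker level. UMI counts were summed over barcodes and divided by all UMIs (CPM); ratios are log2 of CPM plus 1, and their intervals, exact conditional ones, are of the ratio without the added 1. No test was possible with 1 library per diet. Ratios and intervals were tested on simulated data. All 7 genes are named throughout; of each other list the highest 2 and lowest 2 ratios among tested genes, and for likeness genes among the 5 nearest. The members and lists were chosen with earlier results of these data known. Gene IDs matched GENCODE M21 for 30934 of 31053 genes; near-identical transcripts were sought with BLAST 2.17.0. Alternatives covered the denominator, scaling, mitochondrial and depth limits, doublets, thinning, zones, gates and pseudocounts. Some items are not reported here.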

Additional observations from a re-analysis of the deposited data

Results flagged for a closer look

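Fabp5 differed in direction between cell groups under the same contrast of diets. In mesenchymal barcodes its log2 ratio of NASH diet over chow was 1.57 (0.48 to 2.88), from 8 UMIs in 3 of 8 chow barcodes and 45 UMIs in 4 of 11 NASH diet barcodes, whereas in deep hepatocyte barcodes it was −2.11. A single mesenchymal barcode held 75% of the chow UMIs, and another 66.7% of those under the NASH diet. This gate took barcodes with at least 3 mesenchymal markers, at 23139 CPM of summed mesenchymal markers in chow and 23752 CPM under the NASH diet. Markers of other cells differed within it: endothelial markers summed to 12749 and 6933 CPM, Kupffer markers to 6027 and 1304 CPM and cholangiocyte markers to 35.4 and 727 CPM. Their part in the Fabp5 counts was not tested, nor was the difference between the groups.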

How the results depend on the processing

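Of 65 recomputed counts of genes past 2-fold, 63 stayed within 1.5 times the reported count. Both exceptions concern the lobule position of the NASH diet library, where 1 gene was reported: outer quintiles gave 2 (Fabp2, and Fabp5 at −1.004), and a score without Cyp2e1 and Cyp2f2 gave 0, with Fabp2 at −0.99. A margin of 1.5 times is wide for such small counts. It passes the loss of Fabp1 by diet in deep hepatocytes, at 0.98 when scaled by the median gene. By diet in deep hepatocytes, 14 alternatives gave Fabp1 0.98 to 1.79, Fabp2 1.51 to 2.31, Fabp5 −2.26 to −1.66 and Scp2 0.28 to 0.61. Dbi ran from −0.41 to 0.21 and kept its direction in 13 of 14, the exception being at most 20% mitochondrial UMIs (0.21). That limit also gave the 1.79, 2.31, −1.66 and 0.61 of the other genes. It pools 2 mitochondrial bands that the libraries held in unlike proportions, and in them Dbi had −0.83 and 0.09. In Kupffer barcodes with no mitochondrial limit Fabp4 went from 0.05 to −0.56 and Fabp7 from 0.09 to −0.25; the cause was not tested. Limits of at least 10% mitochondrial UMIs and at least 1000 UMIs were chosen after seeing the data. No paired analysis was possible because each diet has 1 library, and for the same reason no library could be left out. Counts in the gates limit what can be seen there: ratios of the 7 genes rest on as few as 2 UMIs in a library. For Fabp4 in other leukocytes, counted as higher, chow had 0 UMIs and only a bound could be given.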
